A study of Mus musculus with 3 samples.

Results

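The PI3K-AKT-mTOR pathway was represented by 36 genes, from the insulin receptor adaptors through the lipid kinases and AKT to the mTOR complexes, S6 kinases, GSK3 kinases and FOXO factors. Members were taken as the probes whose RefSeq record mapped to one of these gene symbols, and all 36 genes were found, among 23458 genes named on the arrays. They were read by 64 probes, with 1 probe for 15 genes, 2 for 15, 3 for 5 and 4 for 1.

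In this pathway, growth factor receptors recruit PI3K, which makes the membrane lipid PIP3, and PIP3 brings PDK1 and AKT together at the membrane. AKT then restrains the TSC complex, which frees RHEB to switch on mTOR complex 1, and AKT also phosphorylates GSK3 and keeps FOXO transcription factors out of the nucleus. In the early embryo, insulin-like growth factors and nutrients feed this pathway, which is known for its part in blastocyst growth, survival and the readiness of trophectoderm to implant. Most of its traffic runs through phosphorylation, which an array of RNA does not measure.

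RNA was measured in mouse blastocysts on 3 Agilent 1-colour arrays, with 1 array per condition. Zygotes were flushed from the oviducts of superovulated, mated ICR females 18 hours after hCG injection and were grown for 96 hours in drops of KSOM, a medium for embryo culture. Young blastocysts had mothers aged 3 to 6 weeks and no treatment, aging blastocysts had mothers aged 43 to 53 weeks and no treatment, and suppressed aging blastocysts had mothers aged 43 to 53 weeks and were grown with an anti-CXCL5 neutralizing antibody at 10 μg/ml and a CXCR2 selective antagonist at 10 nM. CXCL5 is a secreted chemokine and CXCR2 its receptor, and the comparisons ask how the pathway genes differed with maternal age and with the block of this signal. Each array held the pooled RNA of 30 blastocysts, so the spread between embryos was averaged within the pool and not measured. The antibody and the antagonist were given together, so their parts cannot be told apart, and no young group was treated.

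A level is given as the log2 intensity of a probe relative to the 75th percentile of its array, and a difference is the level of the same probe on one array minus that on another. A gene was read by its brightest probe, the one with the highest mean level over the 3 arrays, unless stated otherwise. That mean includes the arrays compared, so a single high reading can decide which probe is used. This was the case for Rps6kb1 and Gsk3b. Levels of different probes are not compared as amounts of RNA, since each probe binds with its own strength. The marker sums below add levels over probes and carry this limit. Without replicate arrays no test of a difference between conditions was possible, no p-value is given and each difference describes these 3 arrays. The precision that could be measured was technical. Probes spotted 10 times on each array had a median SD of 0.045 to 0.052 (log2) between spots, and the scanner software's own error for a difference was 0.20 to 0.34 for the 55 member probes above background on all 3 arrays. Probes of the same gene differed by much more than this, as given below.

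The 3 arrays lay on 1 slide with the same scan time, and 56.4% to 58.7% of probes were well above background on each. All 6 trophectoderm markers and all 6 inner cell mass markers were above background on every array. The summed trophectoderm level, relative to the 75th percentile, was 495, 373 and 441 in young, aging and suppressed aging blastocysts, and the inner cell mass sum was 1011, 1219 and 1130, set mostly by Nanog (log2 levels of 9.88, 10.14 and 10.03). Sox17 went the other way, with levels of 0.91, -0.62 and 0.27. Of 6 cumulus and granulosa markers, 3 (Amh, Cyp19a1 and Foxl2) were above background on every array, with sums of 374 to 438 set almost wholly by Foxl2, while Fshr, Has2 and Inha were not well above background on any array. Blood markers reached 1 or 2 of the 4 with a probe, with sums of 0.53 to 1.58, and the leukocyte marker Ptprc was not above background. Oocyte markers above background numbered 3 of 5 in young, 4 in aging and 2 in suppressed aging blastocysts, with sums of 0.51, 1.71 and 0.56. The part of these shifts in the pathway results was not tested, and in pooled embryos fewer cells of a type and less RNA per cell cannot be told apart.

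Of the 36 genes, 34 had the probe used above background on at least 1 array, which is 94.4% of members against 70.8% of all named genes. Those above background on all 3 arrays numbered 32. The exceptions were Irs1, seen on the aging array alone, Foxo4, seen on the young and suppressed aging arrays, and Pik3cg and Pik3r5, which were on no array. Pik3cg and Pik3r5 encode the catalytic and the p101 regulatory subunit of PI3K gamma, the form that answers G protein-coupled receptors and is best known from leukocytes. Every step of the pathway was therefore represented by RNA above background on each array, and the levels of each gene around its own mean are drawn in the plot of the 36 genes by step.

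**Figure D1:**
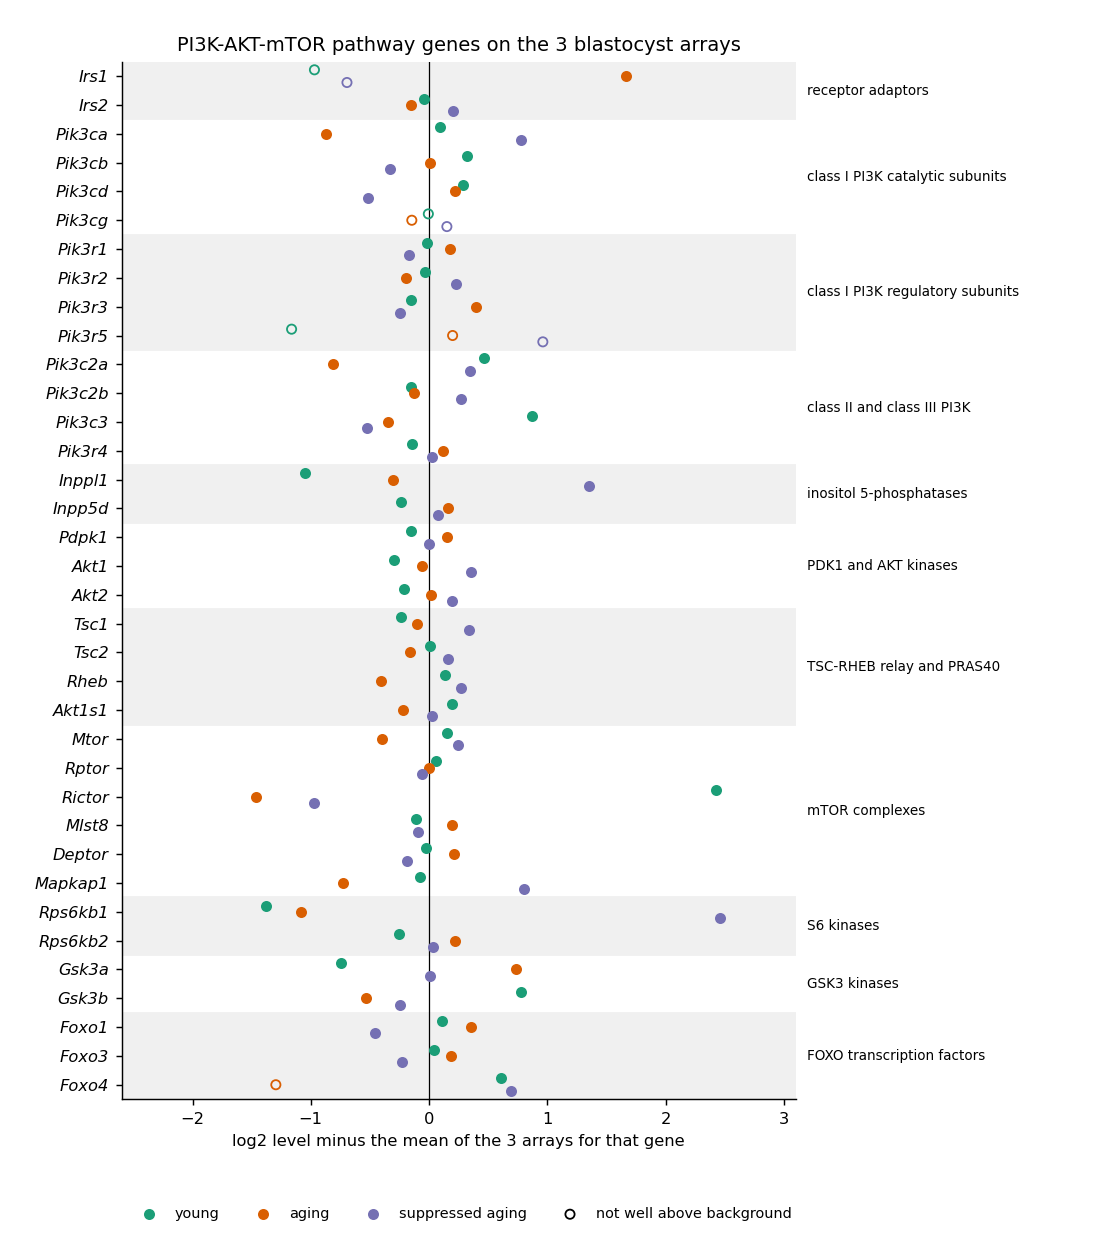
Levels of the 36 pathway genes on the young, aging and suppressed aging arrays (horizontal axis: log2 level minus that gene's mean over the 3 arrays), grouped by step of the pathway from top to bottom. Each point is 1 array, and open points are not well above background. Rictor on the young array and Rps6kb1 on the suppressed aging array stand farthest to the right.

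Between aging and young blastocysts, the pathway genes were divided in direction and mostly differed little. The 34 genes compared had a median difference of 0.08 (log2, aging minus young), with 18 higher and 16 lower in aging, against a median of 0.03 over 16164 genes. The median size of a difference, without its sign, was 0.31 for the members and 0.44 for all genes. The sets were not matched for level. Above background on both arrays were 32 of the 34 members and 14352 of the 16164 genes. A difference over 2-fold was seen in 5 members (14.7%), and 19% of all genes compared passed the same threshold. Gsk3a was the only one of the 5 that was higher (2.94% of members, with 9.86% of all genes higher), and Rictor, Gsk3b, Pik3c2a and Pik3c3 were lower (11.8%, with 9.19% of all genes lower). Over 5-fold, Rictor was the sole member, where 2.59% of all genes lay past that threshold, and with averaged probes it came to -1.25, short of 5-fold. The share of members that were lower was close to that of all genes, and the share that were higher was below it. The median turned to -0.15, with 14 genes higher and 20 lower, when the probes of each gene were averaged. With another background correction (normexp), Pik3c2a and Pik3c3 came to -0.79 and -0.77, short of 2-fold, and with averaged probes Gsk3b came to -0.50.

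Between suppressed aging and aging blastocysts, all 5 members over 2-fold were higher in the suppressed aging blastocysts. They were Rps6kb1, Inppl1, Pik3ca, Mapkap1 and Pik3c2a. These are 14.7% of the 34 compared, with 17.3% of all genes past 2-fold in either direction, 8.77% higher and 8.5% lower. The median difference was 0.21 (log2, suppressed aging minus aging), with 18 higher and 16 lower, against a median of -0.00 over 15875 genes. The median size of a difference was 0.41 in both sets. One member, Rps6kb1, lay past 5-fold, where 2.29% of all genes did, and with averaged probes it came to 2.20, short of 5-fold. Its probe ranked as the brightest only through the suppressed aging reading itself. With normexp, Pik3ca and Pik3c2a came to 0.73 and 0.69, and with averaged probes Inppl1 and Mapkap1 came to 0.79 and 0.91, all short of 2-fold in the same direction.

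Between suppressed aging and young blastocysts, Rps6kb1 and Inppl1 were higher by over 2-fold and Rictor, Pik3c3 and Gsk3b were lower. These 5 are 15.2% of the 33 members compared, with 16.3% of all genes past 2-fold, 8.67% higher and 7.64% lower. The median difference was 0.13 (log2, suppressed aging minus young), with 20 higher and 13 lower, against 0.03 over 15931 genes. Past 5-fold lay 3 members, Rps6kb1, Rictor and Inppl1 (9.09%), where 2.43% of all genes did. With normexp, Pik3c3 came to -0.82, and with averaged probes Gsk3b came to -0.18, both short of 2-fold. None of the 3 members past 5-fold stayed there in every setting, since averaged probes gave Rictor -1.08 and Rps6kb1 1.65, and normexp gave Inppl1 1.61. The 3 comparisons share arrays, so a high or low reading on 1 array enters a pair of them. Rictor's low values against young and Rps6kb1's high values with suppression are such cases. The probe of Rps6kb1 was also picked through that high reading, and the probe of Gsk3b through its young reading.

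**Figure D2:**
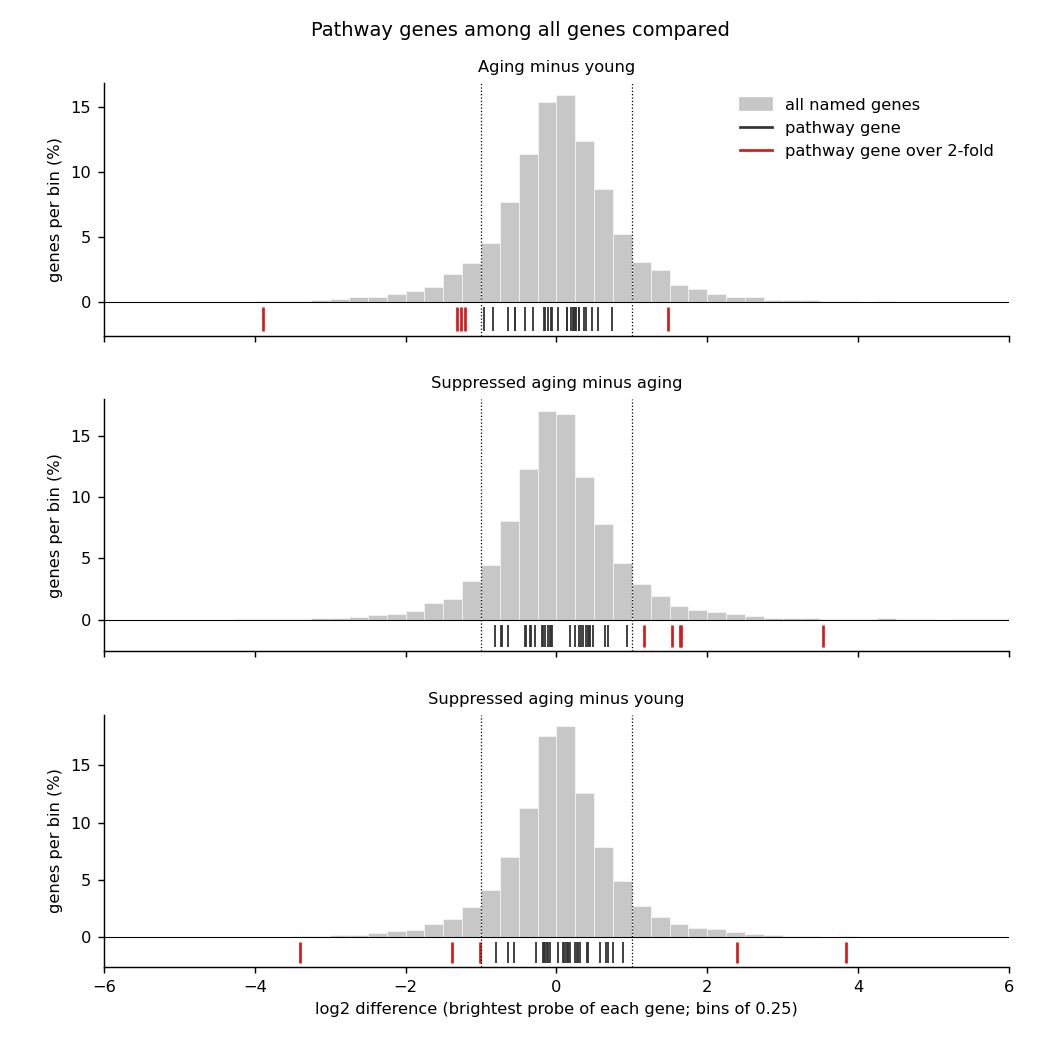
Log2 differences in the 3 comparisons (horizontal axis), with grey bars for the percent of all named genes per bin of 0.25 and ticks below for the pathway genes, red where over 2-fold (dotted lines). Most members lie near the middle of the distribution, and all 5 red ticks in suppressed aging minus aging lie to the right.

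The 18 genes with at least 2 probes above background show how far a reading depends on the probe. In aging against young, all probes pointed the same way in 9 of 18 members (50%), against 50.9% of 4861 genes. In suppressed aging against aging this held for 9 of 18, 7 of them higher and 2 lower, against 49.3% of 4830 genes. In suppressed aging against young it held for 6 of 18 (33.3%), against 50.2% of 4817 genes. The differences of the probes of 1 gene spanned a median of 0.71, 0.88 and 0.74 (log2) in the 3 comparisons, and 0.64, 0.63 and 0.56 over all genes. Every probe was over 2-fold apart in 1 member in aging against young (Gsk3a, 5.56%, with 2.35% of all genes), in 1 in suppressed aging against young (Inppl1, 5.56%, with 1.56%) and in none in suppressed aging against aging (1.86% of all genes). Besides Gsk3a, the members over 2-fold in any comparison whose probes all pointed one way in aging against young were Inppl1, Pik3c2a and Mapkap1. Inppl1 was higher in aging by both probes, and Pik3c2a and Mapkap1 were each lower by all 3.

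The 250 bases upstream of the start sites of Gsk3a, Inppl1 and Pik3c2a are shown. The probes of each of these genes shared a direction in aging against young. Those of Inppl1 were split in suppressed aging against aging, and those of Pik3c2a in suppressed aging against young. The windows are from the RefSeq promoter set of build GRCm38.p6, in which 32 of the 36 members had an entry. All 3 lie on the minus strand and are printed 5′ to 3′ toward the start site, with capitals for the letters that match a searched motif on either strand. Gsk3a is at chr7:25237852-25238101, Inppl1 at chr7:101838227-101838476 (the farther upstream of its listed starts) and Pik3c2a at chr7:116443459-116443708.
Gsk3a: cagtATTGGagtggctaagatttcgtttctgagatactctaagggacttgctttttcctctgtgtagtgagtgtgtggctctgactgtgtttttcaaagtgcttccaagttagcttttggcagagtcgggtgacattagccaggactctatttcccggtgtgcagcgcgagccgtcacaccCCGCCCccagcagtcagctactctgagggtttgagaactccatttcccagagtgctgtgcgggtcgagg
Inppl1: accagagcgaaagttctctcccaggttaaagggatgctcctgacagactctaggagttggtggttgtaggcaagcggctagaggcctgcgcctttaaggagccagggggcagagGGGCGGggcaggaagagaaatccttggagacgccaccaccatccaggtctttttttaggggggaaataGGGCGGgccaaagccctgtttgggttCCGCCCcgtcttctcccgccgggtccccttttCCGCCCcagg
Pik3c2a: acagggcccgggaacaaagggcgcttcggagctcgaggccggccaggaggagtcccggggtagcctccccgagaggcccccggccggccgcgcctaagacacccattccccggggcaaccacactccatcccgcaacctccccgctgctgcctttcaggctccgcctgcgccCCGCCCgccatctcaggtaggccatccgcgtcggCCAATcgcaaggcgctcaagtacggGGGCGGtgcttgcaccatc
The letters searched were those of the GC box that SP1 factors bind (GGGCGG), the box bound by NF-Y (CCAAT), the TATA box of the general transcription machinery (TATAAA), the E-box of basic helix-loop-helix factors (CACGTG), the core of ETS factor sites (CGGAAG) and the core of FOXO factor sites (GTAAACA). The GC box letters were found once upstream of Gsk3a, at 4 positions upstream of Inppl1 and at 2 upstream of Pik3c2a, and 32.7% of 32851 windows of this length held them. The NF-Y letters were found upstream of Gsk3a and Pik3c2a, at 1 position each, and in 33.8% of windows. The second listed start of Inppl1, at chr7:101837825-101838074, held the GC box letters at 3 positions and the NF-Y letters at 1, with a GC content of 62.8%. None of these windows held the letters of the TATA box, the E-box, the ETS core or the FOXO core, which 12.4%, 6.02%, 13.6% and 3.17% of windows held. The GC content was 52.0% for Gsk3a, 60.4% for Inppl1 and 71.2% for Pik3c2a, against a median of 52.4%. These matches are a description of the letters, and no binding was measured.

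At the receptor adaptors, which link the insulin and IGF1 receptors to PI3K, Irs2 was steady and Irs1 was near the limit of detection. Irs2 had levels of 1.10, 0.99 and 1.35 in the order young, aging and suppressed aging, the order used for all level triplets below. Irs1 reached -3.83 on the aging array and was not well above background on the other arrays, which makes it at least 1.29-fold higher in aging than in young and at least 1.08-fold higher than in suppressed aging. These bounds allow a difference of any size above them.

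Among the class I catalytic subunits, which make PIP3, Pik3ca (p110 alpha) was lowest in aging. Its level was -1.63 in young, -2.59 in aging and -0.94 in suppressed aging, differences of -0.96 for aging minus young and 1.65 for suppressed aging minus aging (3.13-fold). It has 1 probe, so no second reading of the gene was at hand. Pik3cb (p110 beta) gave 0.73, 0.42 and 0.09 by its brightest probe and -0.74, -0.96 and -0.69 by its other, so that both were lower in aging than in young, by differences of -0.32 and -0.22, and they parted after suppression (-0.33 and 0.27). Pik3cd (p110 delta), with 4 probes, gave -0.77, -0.84 and -1.57 by the brightest. All 4 of its probes were lower in suppressed aging than in young, from -0.03 to at most -1.17, the last a bound because that probe was not well above background on the suppressed aging array. The regulatory subunits that hold and dock the catalytic ones, Pik3r1, Pik3r2 and Pik3r3, stayed under 2-fold throughout. Pik3r3 (p55 gamma), with levels of 0.61, 1.17 and 0.52, had the largest differences of the 3 in both comparisons with the aging array. These were 0.56 for aging minus young and -0.64 for suppressed aging minus aging. Pik3r1 (p85 alpha) differed by 0.19 and -0.35, and Pik3r2 (p85 beta) by -0.16 and 0.43.

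Among the class II and class III kinases, which make the lipids of endosomes and autophagosomes, Pik3c2a and Pik3c3 were both low in aging blastocysts, but only Pik3c2a was higher again with suppression. Pik3c2a, a class II kinase of clathrin-coated membranes, had levels of -0.14, -1.41 and -0.26 on the young, aging and suppressed aging arrays by its brightest probe. The other probes read -1.37, -2.13 and -1.85, and -2.55, -3.73 and -1.86. All 3 probes were thus lowest on the aging array. For aging minus young they gave -1.27, -0.76 and -1.17, and for suppressed aging minus aging 1.16, 0.28 and 1.87. Against young, the suppressed aging array read -0.11, -0.48 and 0.70 on the 3 probes, which do not share a direction. Pik3c3 (VPS34), the class III kinase needed for autophagy, had levels of -0.03, -1.24 and -1.42 by its 1 probe, so that both arrays of aging females lay below the young one, by differences of -1.21 and -1.39. Pik3r4 (VPS15), its regulatory partner, did not follow it, with levels of -1.13, -0.87 and -0.95. Pik3c2b had probes that disagreed, with differences of 0.40 and -0.59 for suppressed aging minus aging.

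The inositol 5-phosphatases take a phosphate from PIP3, and Inppl1 (SHIP2) was higher in suppressed aging than in young by both of its probes. Its brightest probe had levels of -0.99, -0.25 and 1.40 on the young, aging and suppressed aging arrays, and its other probe -2.11, 0.47 and 0.40. Both probes were lowest on the young array. They gave nearly the same difference for suppressed aging minus young, 2.40 and 2.51 (5.26-fold and 5.71-fold), but placed it at different steps. For aging minus young the differences were 0.74 and 2.58, and for suppressed aging minus aging 1.65 and -0.07. Whether the higher level was present in untreated aging blastocysts therefore depends on the probe. Inpp5d (SHIP1), the form best known from blood cells, had levels of -0.00, 0.39 and 0.31, all differences under 2-fold.

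PDK1 and the AKT kinases, the core of the pathway, showed no difference over 2-fold by the brightest probe. Pdpk1 (PDK1), which phosphorylates AKT and S6 kinases, had levels of 3.62, 3.93 and 3.78 by that probe and 3.05, 2.01 and 2.90 by its other. The first was highest and the second lowest in aging, with differences of 0.30 and -1.04. Akt1 was highest in suppressed aging, with levels of 1.65, 1.88 and 2.30 and differences of 0.23, 0.42 and 0.65 in aging minus young, suppressed aging minus aging and suppressed aging minus young. Its other probe gave smaller values, 0.13, 0.00 and 0.14. Akt2, the isoform most tied to glucose uptake, had levels of 4.48, 4.70 and 4.88 by the brightest of 3 probes. All 3 were higher in suppressed aging than in aging (0.18, 0.94 and 0.33), while for aging minus young they gave 0.23, -0.96 and 0.07.

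**Figure D3:**
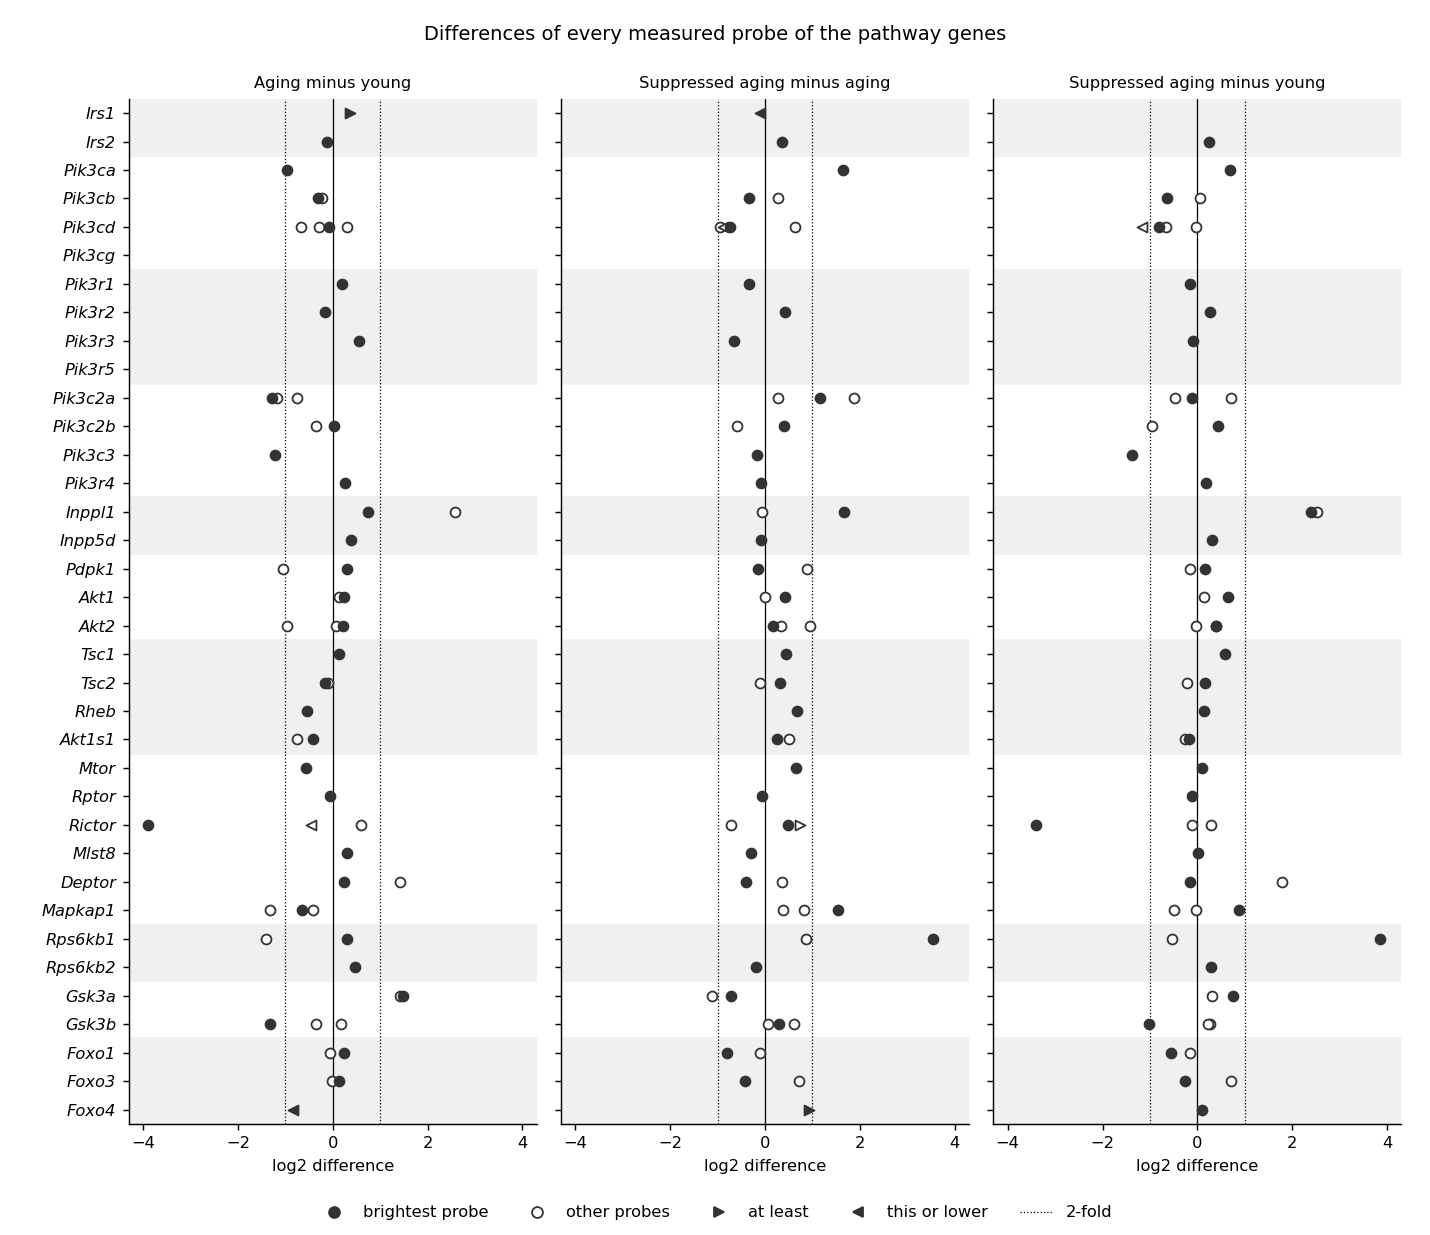
Log2 differences (horizontal axes) of every measured probe of the 36 pathway genes in the 3 comparisons, with filled points for the brightest probe, open points for other probes, triangles for bounds and dotted lines at 2-fold. The probes of Gsk3a, Inppl1, Pik3c2a and Mapkap1 keep together in sign in aging minus young, and those of Rictor, Rps6kb1, Pdpk1 and Akt2 are split.

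By the brightest probe, the relay from AKT to mTOR was lower in aging than in young in 3 of 4 genes. It was higher in suppressed aging than in aging in 4 of 4, with every difference under 2-fold. Of all genes, 51.9% and 49.7% were higher in these comparisons. Both use the aging array, so a low reading there enters both counts. For aging minus young, Tsc1 and Tsc2 gave 0.14 and -0.17, within their scanner errors of 0.20. Rheb, the GTPase that activates mTOR complex 1, had levels of 1.56, 1.01 and 1.69, with differences of -0.55 for aging minus young and 0.68 for suppressed aging minus aging. Akt1s1 (PRAS40), an AKT substrate that restrains the complex, was lowest in aging by both probes, which read 2.71, 2.29 and 2.53, and 2.76, 2.00 and 2.50. Tsc1 and Tsc2 together form the brake on RHEB. Tsc1 had levels of 3.03, 3.16 and 3.61, the highest in suppressed aging, and its other probe was not well above background. Tsc2 had levels of 2.31, 2.14 and 2.46, but its other probe gave -0.11 where the brightest gave 0.32 for suppressed aging minus aging.

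Of the mTOR complex genes, Mtor, the kinase itself, was lowest in aging, with levels of -0.83, -1.38 and -0.73 by its 1 probe. This gives differences of -0.55 for aging minus young and 0.65 for suppressed aging minus aging. Rptor, which defines complex 1, was the steadiest of the set, with levels of -1.30, -1.36 and -1.42, and Mlst8, found in both complexes, read 2.39, 2.70 and 2.41. Mapkap1 (SIN1), which defines complex 2 with Rictor, was lowest in aging by all 3 probes. These read 1.10, 0.45 and 1.98, then -0.21, -0.62 and -0.24, then -0.76, -2.07 and -1.26. The differences for suppressed aging minus aging were 1.53, 0.38 and 0.82. Deptor, an inhibitor held in both complexes, gave 0.24 and 1.42 for aging minus young by its 2 probes, of which only the dimmer was past 2-fold, and -0.40 and 0.35 for suppressed aging minus aging.

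Rictor, the scaffold of mTOR complex 2, held the largest difference of the pathway and also the clearest split between probes. Its brightest probe read 2.96 in young, -0.92 in aging and -0.43 in suppressed aging, differences of -3.89 (14.8-fold) for aging minus young and -3.40 (10.5-fold) for suppressed aging minus young. The second probe read -2.33, -1.73 and -2.45, so that it was higher in aging than in young, by 0.60. The third read -3.87 in young and -3.58 in suppressed aging and was not well above background in aging. The low reading in aging is thus given by 1 probe of 3 at this size, and the third probe gives a bound of at most -0.45 in the same direction. Scanner errors of the differences were 0.20 to 0.24 for the 9 members over 2-fold apart in any comparison, Rictor among them.

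The S6 kinases act below mTOR complex 1 on ribosomal protein S6. Rps6kb1 (S6K1) was far higher on the suppressed aging array by its brightest probe, with levels of 0.15, 0.45 and 3.99 and a difference of 3.54 (11.6-fold) from aging. Its other probe, named through a different RefSeq transcript record of the gene, read 1.55, 0.15 and 1.01. The first probe had the higher mean over the 3 arrays only through its suppressed aging reading, and on the young array the other was brighter. The choice of probe was thus not independent of the difference it gave. Both probes were higher in suppressed aging than in aging, the other by 0.86, but against young the other probe was lower, at -0.54, where the brightest gave 3.84. The gene was thus over 2-fold higher with suppression by 1 of 2 probes. For aging minus young the probes parted too, with 0.30 by the brightest and -1.40 (2.64-fold) by the other. Rps6kb2 (S6K2), with 1 probe, had levels of 2.19, 2.66 and 2.47 and no difference over 2-fold.

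The GSK3 kinases, which AKT inhibits, differed in opposite directions between aging and young. Gsk3a had levels of 1.26, 2.74 and 2.02 on the young, aging and suppressed aging arrays by its brightest probe and 0.96, 2.38 and 1.27 by its other. Both probes were highest in aging, with differences of 1.48 (2.78-fold) and 1.42 (2.68-fold) from young, and lower in suppressed aging than in aging, with differences of -0.72 and -1.12. The suppressed aging array lay between the others by both probes. Gsk3b had levels of 2.60, 1.29 and 1.58 by the brightest of 3 probes, a difference of -1.31 for aging minus young. That probe ranked as the brightest through its young reading, since another probe was brighter on the aging and suppressed aging arrays. The other probes gave -0.36 and 0.17, and for suppressed aging minus young 0.26 and 0.23 where the brightest gave -1.02. The difference of over 2-fold in Gsk3b therefore rests on 1 of 3 probes, with 2 of 3 lower in aging than in young and 1 of 3 lower in suppressed aging than in young, while the higher level of Gsk3a in aging was given by both of its probes.

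**Figure D4:**
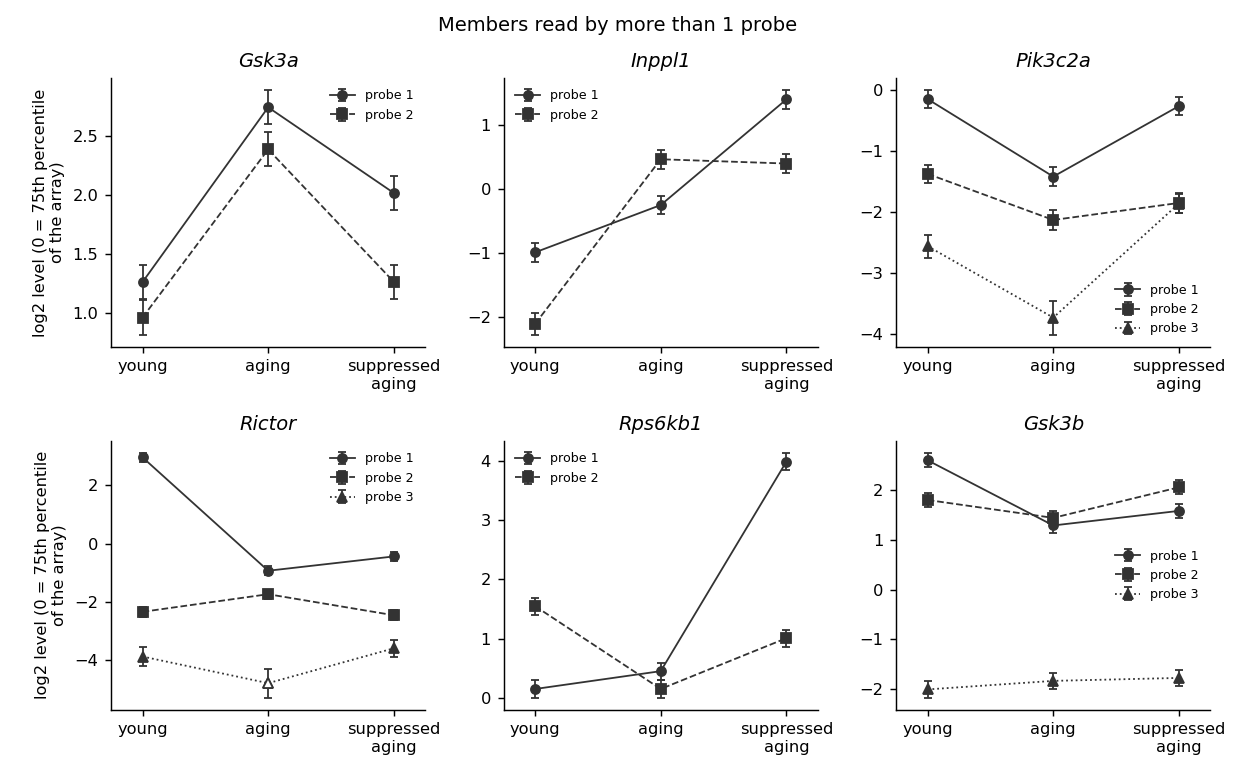
Levels of every probe of 6 pathway genes on the 3 arrays (vertical axes: log2 level relative to the 75th percentile, each panel with its own range), where bars are the scanner software's error of the spot and open markers are not well above background. The probes run in parallel for Gsk3a, keep the same low point for Pik3c2a and part for Rictor, Rps6kb1 and Gsk3b.

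The FOXO transcription factors among the members, which AKT keeps out of the nucleus, stayed within 2-fold where they were measured. Foxo6, from the wider list below, did not. Foxo1 was lowest in suppressed aging, with levels of 2.49, 2.73 and 1.92 by its brightest probe and 1.43, 1.38 and 1.28 by its other, and differences from aging of -0.81 and -0.10. Foxo3 had levels of 1.67, 1.82 and 1.40, a difference of -0.41 from aging, but its other probe gave 0.73. Foxo4 read -3.47 in young blastocysts and -3.39 after suppression and was not well above background in aging, which makes it at least 1.80-fold higher in young and at least 1.91-fold higher in suppressed aging than in aging.

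Other genes of the pathway, 88 in 7 groups, were set beside the members. All had a probe, and 84 had it above background on at least 1 array. For aging minus young, 51 of 83 lay above 0 and 32 below, and the median was 0.23, with 14 genes over 2-fold (9 higher and 5 lower, 16.9%, against 19% of all genes). For suppressed aging minus aging, 41 lay above 0 and 42 below, and the median was -0.03, with 13 over 2-fold (15.7%, against 17.3% of all genes). For suppressed aging minus young, 50 of 82 were higher, with a median of 0.14 and 18 over 2-fold (22.0%, against 16.3% of all genes). The shares that were higher in the 3 comparisons were 61.4%, 49.4% and 61.0%, against 51.9%, 49.7% and 52.4% of all genes.

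The group of energy and stress inputs, which holds AMPK and REDD1 genes, had 8 of 10 genes higher in aging than in young, with a median of 0.63, and 7 of 10 lower in suppressed aging than in aging, with a median of -0.31. These counts are by the brightest probe, and in all 4 genes of the group with a second measured probe (Prkaa2, Prkab1, Strada and Cab39) that probe had the opposite sign in both comparisons. For aging minus young, Prkab1 gave 0.58 and -1.08 and Strada 0.87 and -1.51. Ddit4 (REDD1), which restrains mTOR complex 1 under stress, had levels of 2.50, 3.92 and 3.55 by its 1 probe, a difference of 1.42 for aging minus young. Lipid enzymes went the other way, with 6 of 8 lower in aging and 7 of 8 higher in suppressed aging than in aging, with medians of -0.51 and 0.19. Here too a second probe could differ, as for Pikfyve, which gave -0.39 and 1.13 for aging minus young. Both comparisons use the aging array, so the mirrored counts are not separate observations. Of all genes, 51.9% were higher in aging than in young and 49.7% in suppressed aging than in aging. Higher in aging than in young were also 4 of 8 AKT partners, 14 of 21 genes of the amino acid branch, 2 of 5 of mTOR assembly and 12 of 19 outputs. Pik3r6 (p87), a regulatory subunit of PI3K gamma, had the lowest difference of the list for aging minus young, with levels of 2.29, -0.87 and -0.77 and a difference of -3.17, by 1 probe. Inpp4a, a phosphatase acting on the lipid PI(3,4)P2, had levels of 0.66, -1.33 and -1.13. In suppressed aging minus young its brightest probe gave -1.79 and another -0.38.

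Among receptors and ligands, 9 of 12 were higher in aging than in young by the brightest probe, with a median of 0.26. A second probe reversed the sign for Insr, which gave 0.96 and -1.88, and for Igf2, which gave 0.11 and -1.10. It kept the sign for Igf1r and Erbb2. Igf1r, the receptor of IGF1, had levels of -1.56, -0.22 and -0.75, a difference of 1.34 for aging minus young, and its other probe gave 2.45. Grb10, an adaptor that dampens insulin and IGF1 receptors, had levels of -3.68, -1.80 and -3.52, with differences of 1.88 for aging minus young and -1.72 for suppressed aging minus aging, where its other probe gave -1.44. Igf1r was highest in aging by both probes. Igf1 was lower on both arrays of aging females, with levels of -0.59, -1.98 and -2.67, and so was the adaptor Gab2, with levels of 4.19, 1.79 and 2.27, each by 1 probe.

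In suppressed aging minus aging, the highest differences of the wider list among genes above background on both arrays were those of Prkaa2 (1.64), a catalytic subunit of AMPK, Pip4k2a (1.33), a lipid kinase, Sgk1 (1.25), a kinase related to AKT, and Phlpp1 (1.18), an AKT phosphatase. Prkaa2 was split, since its other probe gave -0.26. The lowest by the same rule were those of Grb10, Phlpp2 (-1.58), a further AKT phosphatase, Pip5k1a (-1.36), which makes the substrate of class I PI3K, and Flcn (-1.16), a lysosomal regulator of mTOR complex 1 signaling. Flcn was lower by its other probe as well (-0.74), while that of Pip5k1a gave -0.06. Genes above background on only 1 of these arrays reached further by their bounds, at least 1.34 for Pik3ip1, an inhibitor of PI3K, and at most -1.92 for Ddit4l (REDD2). The AKT phosphatases Phlpp1 and Phlpp2 lay on opposite sides.

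Outputs of the pathway included the highest differences from young. Foxo6, a FOXO factor, had levels of -2.57, -0.24 and -1.15, with differences of 2.33 for aging minus young and 1.43 for suppressed aging minus young, by 1 probe. Ulk1, the kinase that starts autophagy and that mTOR complex 1 inhibits, had levels of 3.64, 4.86 and 4.94. Its difference for suppressed aging minus young was 1.30, and its other probe gave 0.87. In the amino acid branch, Castor1, an arginine sensor, and Mios, a part of the GATOR2 complex, were also among the highest in suppressed aging minus young, at 1.40 each by 1 probe.

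**Figure D5:**
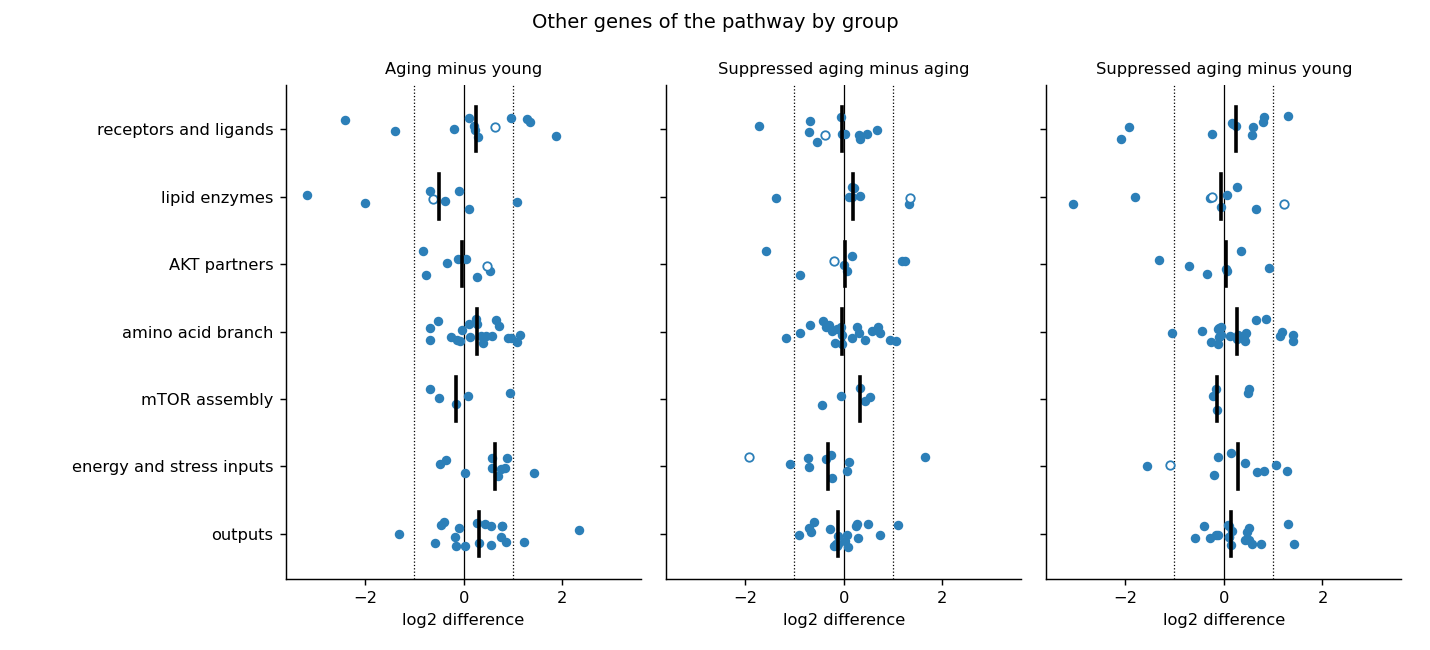
Log2 differences (horizontal axes) of 88 other pathway genes in 7 groups, in the 3 comparisons, each point 1 gene by its brightest probe, open points bounds, black bars the group medians and dotted lines 2-fold. Points are spread vertically within a group for legibility only. Energy and stress inputs lie mostly to the right in aging minus young and lipid enzymes mostly to the left.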

How the data were processed

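The authors deposited 1 scanner file per array, holding the intensity of each spot after background subtraction and detrending by Agilent Feature Extraction 12.0.3.1 (named in the submitters' processing notes), without normalization between arrays. Their table of processed values was each deposited intensity times 1 factor per array (3.46, 3.34 and 3.96), and served as an alternative. From these files, control and outlier spots (85 to 118 per array) were left out, repeat spots of a probe were averaged on the log2 scale, and each array's 75th percentile was subtracted. Probes were named by RefSeq accession through a gene table of GRCm38.p6 (33759 of 56591 probes). The array design names build mm9, so probe coordinates are not given. A gene was read by the probe with the highest mean level over the 3 arrays. An array not well above background was set to its detection limit (-4.20, -4.32 and -3.93) or its own level, whichever was higher, giving bounds, and genes dim on both arrays were not compared. The threshold was 2-fold. All 36 members are named, with levels for those past it, those with several measured probes and the core kinases. Of the other list, at most the 4 highest and 4 lowest genes per comparison are named, apart from genes named for a second probe or a bound. The members and lists were chosen with earlier results of these data known. Labels name a Low Input Quick Amp kit for the labelling, and the methods name an amplification by single-primer PCR, so uneven amplification from little RNA was not tested. The number of arrays limits the precision. The calculation was tested on simulated data. Python 3.11.15, pandas 2.3.3, R 4.3.3 and limma 3.58.1 (for the normexp and quantile alternatives) were used.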

Additional observations from a re-analysis of the deposited data

How the results depend on the processing

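Of the 10 alternatives tried, 9 were planned and 1, the second brightest probe of each gene, was chosen after seeing the data. Naming probes by a gene name column was planned but not run, since the scanner files as used here hold no such column. No paired analysis was possible because the groups hold 1 array each. The 5 members over 2-fold in each comparison kept their direction in every setting except the second brightest probe, where Rictor in aging minus young read 0.60, Inppl1 in suppressed aging minus aging -0.067, and in suppressed aging minus young Gsk3b 0.26 and Rps6kb1 -0.54. That setting left 18 members to compare. Their medians were -0.29 for aging minus young, 0.32 for suppressed aging minus aging and -0.027 for suppressed aging minus young. In aging minus young 5 members were over 2-fold, 3 higher and 2 lower. Of these, Gsk3a alone was over 2-fold by the brightest probe too. The others were Inppl1 and Deptor, higher, and Pdpk1 and Rps6kb1, lower. In suppressed aging minus young 2 members were over 2-fold. In suppressed aging minus aging 1 was, Gsk3a, lower at -1.12. None of the 5 members higher by the brightest probe stayed over 2-fold in that comparison. Averaging the probes gave a median of -0.15 for aging minus young and 3 members over 2-fold for suppressed aging minus aging. Normexp background correction, which shrinks differences of dim probes, left 3 members over 2-fold in each comparison. It lost Pik3c2a and Pik3c3 in aging minus young, Pik3ca and Pik3c2a in suppressed aging minus aging, and Pik3c3 and Gsk3b in suppressed aging minus young, and gave medians of 0.12 for suppressed aging minus aging and 0.047 for suppressed aging minus young. The authors' processed values gave a median of 0.12 for suppressed aging minus aging. A threshold of 5-fold left 1, 1 and 3 members, and no filter on dim probes gave 8 for aging minus young. Of 57 recomputed medians and counts of the list, 40 stayed within the spread between repeat spots or within 1.5 times the count, and 17 did not. Beyond the construction of each setting, the cause was not tested. Signal over background limits Irs1 and Foxo4, which have bounds only against an array where they were not well above background.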
